A study of Homo sapiens with 9 samples.

Results

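The immunoproteasome and peptide loading genes encode or regulate a system that cuts proteins into peptides and places these on MHC class I molecules. The 10 genes are PSMB8, PSMB9, PSMB10, PSME1, PSME2, TAP1, TAP2, TAPBP, B2M and NLRC5. They were fixed by name, and every probe set annotated with 1 of these symbols alone was taken. This gave 34 probe sets for 10 of the 18132 genes that have a probe set with 1 symbol. RNA levels were measured in HCCC-9810, a human cholangiocarcinoma (bile duct cancer) cell line, on 9 Affymetrix arrays, with 3 biological replicates each of cells given BAP1 siRNAs (si-BAP1), MBD5 siRNAs (si-MBD5) or a control RNA (si-Control). BAP1 is a nuclear deubiquitinase and MBD5 a protein with a methyl-CpG-binding domain. The sample titles name the control si-Control, whereas the treatment field names a control shRNA, and which it was is not settled here. All 9 samples come from 1 cell line, and the number of siRNA sequences per target, the dose and the time after transfection are not given in the sources used here.

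MHC class I molecules show peptides from inside the cell to CD8 T cells. The proteasome cuts the proteins. In the immunoproteasome, 3 catalytic subunits (PSMB8, PSMB9 and PSMB10) take the places of their constitutive counterparts (PSMB5, PSMB6 and PSMB7), and a ring of PSME1 and PSME2, the PA28 activator, opens the barrel. The transporter made of TAP1 and TAP2 moves the peptides into the endoplasmic reticulum, where TAPBP (tapasin) holds it next to the empty heavy chain with its light chain B2M. NLRC5 is a transactivator of class I genes. Interferon-gamma is the classical inducer of these genes, and inflammatory signals through NF-kB add to it in epithelial cells.

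Promoter sequences of the members are shown as the context in which these genes are known to respond to interferon. No relation between these letters and the array values was tested, and none is to be read from them. RefSeq promoters (GRCh38.p14, 250 bases before to 50 after the annotated start) were available for 9 of 10 members and gave 11 promoters. A pair of GAAA blocks with 2 bases between them (GAAANNGAAA, either strand), the core of the interferon-stimulated response element, was found in 8 of the 11, belonging to 8 members, against 3.57% of all 35116 promoters of that length. The motifs were chosen with the sequences and the expression values known. The capitals mark the paired GAAA blocks, or TTTC where the match is on the opposite strand, with overlapping pairs in TAPBP and B2M:
PSMB8 start 2 (chr6:32844027-32844066, minus strand): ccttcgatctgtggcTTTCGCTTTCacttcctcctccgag
PSMB10 (chr16:67936847-67936886, minus strand): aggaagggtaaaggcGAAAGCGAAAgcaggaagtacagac
PSME1 (chr14:24136184-24136223, plus strand): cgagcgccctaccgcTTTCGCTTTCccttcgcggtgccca
PSME2 (chr14:24146614-24146653, minus strand): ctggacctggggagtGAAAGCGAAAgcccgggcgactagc
TAP2 (chr6:32838773-32838812, minus strand): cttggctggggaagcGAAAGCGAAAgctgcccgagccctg
TAPBP (chr6:33314068-33314113, minus strand): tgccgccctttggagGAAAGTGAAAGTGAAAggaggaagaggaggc
B2M (chr15:44711358-44711403, plus strand): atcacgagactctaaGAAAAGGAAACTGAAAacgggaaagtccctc

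The closest pair is TAP1 and PSMB9. The genes run away from each other on chromosome 6 with 487 bases between their annotated starts, so their upstream sequences, printed 250 bases long up to each start, overlap by 13 bases. Capitals in them mark the GAAA pairs, an NF-kB type match (GGGNNTTTCC) and GC boxes (GGGCGG):
PSMB9 (chr6:32853942-32854191, plus strand): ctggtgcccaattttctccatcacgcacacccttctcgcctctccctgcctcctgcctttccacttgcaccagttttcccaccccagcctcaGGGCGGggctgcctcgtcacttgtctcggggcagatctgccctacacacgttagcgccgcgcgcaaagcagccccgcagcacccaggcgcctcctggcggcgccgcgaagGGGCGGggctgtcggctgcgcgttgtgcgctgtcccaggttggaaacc
TAP1 start 1 (chr6:32853705-32853954, minus strand): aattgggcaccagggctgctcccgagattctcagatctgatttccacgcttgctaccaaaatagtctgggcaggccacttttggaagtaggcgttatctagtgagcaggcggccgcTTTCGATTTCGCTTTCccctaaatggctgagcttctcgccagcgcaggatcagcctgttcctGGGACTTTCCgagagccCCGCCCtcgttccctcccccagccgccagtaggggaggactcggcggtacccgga

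In the TAP1 promoter, 2 overlapping GAAA pairs span the bases from 134 to 119 before the TAP1 start, and the first of these bases lies 354 bases before the PSMB9 start. The PSMB9 window itself held no GAAA pair, no NF-kB type match and 2 GC boxes. The NF-kB type letters occurred in the TAP1, TAPBP and B2M promoters, 3 of 11, against 1.91% of all promoters. The STAT type letters TTCNNNGAA (the GAS core) occurred in 2 of 11, at the second start of PSMB8 and the second start of TAP1, against 7.66% of all promoters. GC boxes occurred in 9 of 11, against 45.0%. A match of letters is not a binding site, and the arrays do not measure binding.

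**Figure D1:**
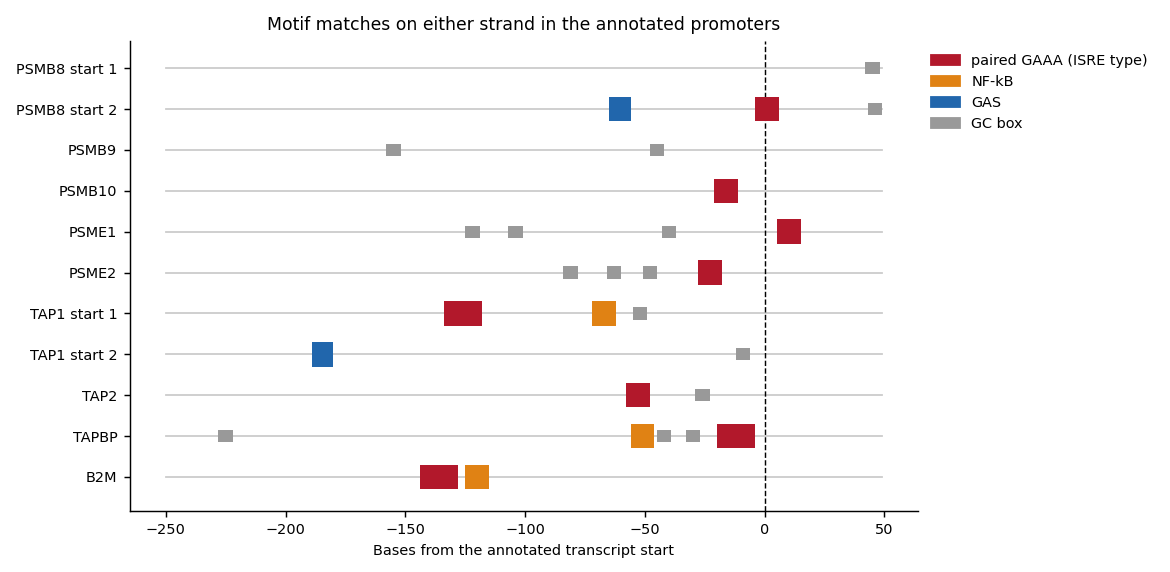
Motif matches in the 11 RefSeq promoters of the members, by distance in bases from the annotated transcript start (dashed line), with red for paired GAAA, orange for NF-kB type, blue for GAS and grey for GC box letters. Paired GAAA blocks lie in 8 promoters, and the PSMB9 window holds only GC boxes.

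Each array gives every probe set an intensity on a linear scale, and the brightest probe set stands for its gene unless another is named. Since probe sets bind with different strength, intensities are compared between arrays and not between genes. A fold change is a difference of means of log2(intensity + 16), with its standard error (SE), and the added 16 makes it smaller than the ratio of the intensities, above all for dim genes. Adjusted p-values come from limma with Benjamini-Hochberg adjustment over all 12434 genes tested, and a gene passed below 0.05. A probe set was tested if its mean was above the 40th percentile of all probe sets, called the filter. In each gene the SE is that of all 3 comparisons, since all groups had 3 arrays. Both knockdowns are set against the same si-Control arrays, so their differences from it are not independent of each other, and a lower level in a culture can come from fewer cells expressing a gene or from less RNA per cell, which cannot be told apart.

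The arrays had medians of 36.9 to 38.2 and correlated at 0.9977 to 0.9989 within groups and 0.9958 to 0.9982 between groups, ranges that overlap. Of 7 measured cholangiocyte and epithelial markers, 4 were above the filter on these arrays. These were the bile duct keratin KRT7 (930 to 1146), the keratins KRT8 (628 to 842) and KRT18 (1610 to 1857) and the biliary transcription factor SOX9 (34.1 to 48.0), while KRT19 (18.4 to 23.2) and EPCAM (7.40 to 12.2) were among those below it. The leukocyte marker PTPRC stood at 3.06 to 4.68, and the 12 measured immune markers summed to 299 to 360 in si-BAP1, 332 to 361 in si-MBD5 and 323 to 355 in si-Control. Of the 12, 4 were above the filter: ITGAX, TYROBP, CORO1A and CD3E, with si-Control means of 102.0, 59.4, 32.8 and 29.6. Of 5 measured hepatocyte markers, 2 were above the filter: APOA1 and TTR, with si-Control means of 43.6 and 38.6. Among markers, KRT7 was lower in both knockdowns (-0.15 in si-BAP1 and -0.19 in si-MBD5), KRT8 was higher in si-BAP1 (0.31), and the fibroblast gene PDGFRB was higher in both (0.16 and 0.24). The 8 fibroblast and endothelial markers, 4 of them above the filter, summed to 228 to 252 in si-BAP1, 231 to 257 in si-MBD5 and 223 to 231 in si-Control. The part of these in the results was not tested. MBD5 was near the bottom of the arrays, at 6.20, 6.20 and 6.11 in si-MBD5 against 7.16, 7.06 and 6.90 in si-Control (exact two-sided permutation p = 0.1, the smallest possible with 3 against 3), and its dimmer probe set averaged 2.34 in si-MBD5 and 2.39 in si-Control. BAP1 was not analysed here, so the si-BAP1 label has no check against its target. As a measure of RNA integrity, the signal of the 3 prime end of ACTB over that of its 5 prime end averaged 11.1 ± 0.31 in si-BAP1, 12.3 ± 0.72 in si-MBD5 and 12.2 ± 0.52 in si-Control (SD, n = 3 each). The si-BAP1 arrays lay wholly below si-Control (exact two-sided permutation p = 0.1), and the part of this in the falls in si-BAP1 was not tested.

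In si-BAP1 cells 7 of the 10 genes fell and 0 rose, where 11.1% of all tested genes fell and 12.4% rose. In si-MBD5 cells 7 of 10 also fell and 0 rose, where 8.99% of all tested genes fell and 7.29% rose. At an unadjusted limma p under 0.05, 9 fell and 0 rose in si-BAP1, and 7 fell and 1 rose in si-MBD5. The 6 genes that fell in both were PSMB8, PSMB9, PSME1, PSME2, TAP1 and TAPBP, against 5.64% of all genes falling in both. NLRC5 passed in si-BAP1 and not in si-MBD5, and PSMB10 passed in si-MBD5 and not in si-BAP1. TAP2 and B2M passed in neither. Counted by arrays alone, the 3 si-BAP1 arrays lay wholly below the 3 si-Control arrays in 9 of 10 genes (17.4% of all genes) and wholly above in 0 (20.0%). The si-MBD5 arrays lay wholly below in 7 (16.4%) and wholly above in 1, TAP2 (14.0%). The median log2 fold change of the 10 genes was -0.30 in si-BAP1 and -0.25 in si-MBD5, beside 0.00047 and 8.5e-05 for all tested genes.

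**Figure D2:**
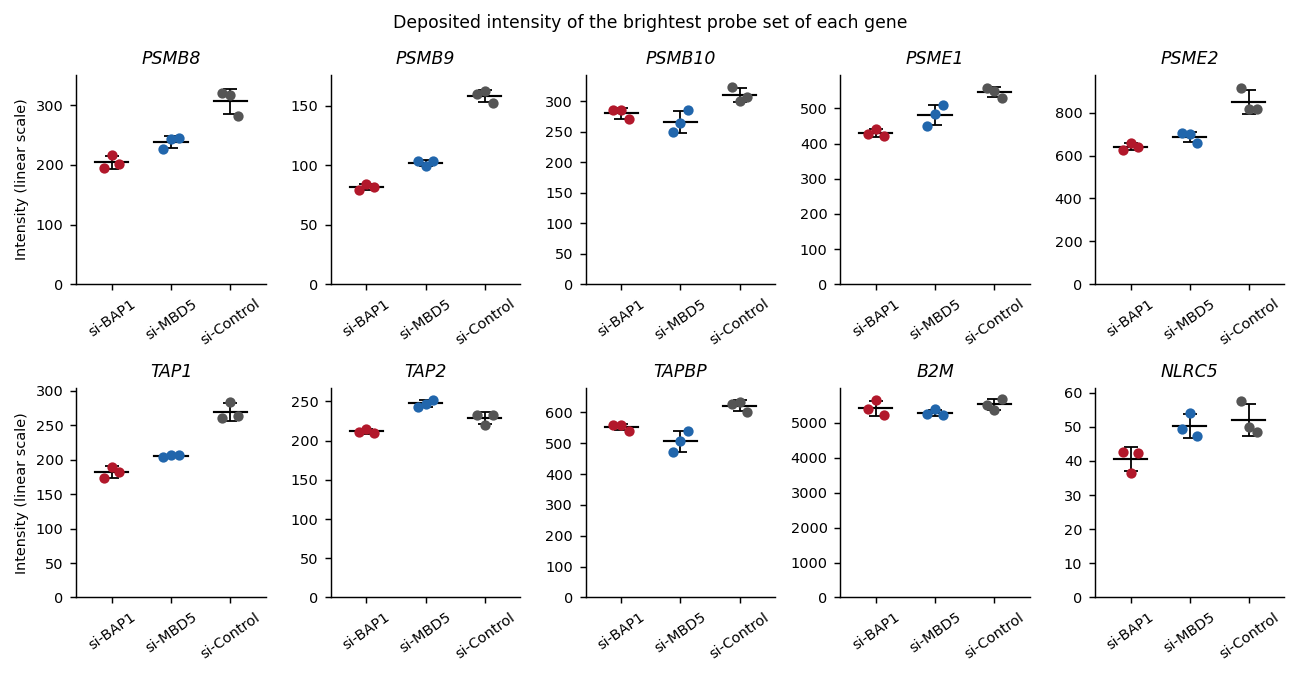
Deposited intensity (linear scale, each axis starting at 0) of the brightest probe set of each of the 10 genes, with a point per array, a bar at the group mean and whiskers of 1 SD (n = 3 arrays per group). For PSMB9 the si-BAP1 arrays lie at 78.9 to 84.4, the si-MBD5 arrays at 99.3 to 103.4 and the si-Control arrays at 152.1 to 162.6, while the 3 groups overlap for B2M.

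Among the catalytic subunits, PSMB9 (LMP2) had the largest fall of the 10 genes in both knockdowns. Its intensity was 78.9, 84.4 and 81.9 in the si-BAP1 arrays, 103.4, 99.3 and 103.4 in the si-MBD5 arrays, and 159.5, 162.6 and 152.1 in the si-Control arrays. The 3 groups did not overlap, and the si-BAP1 mean was 0.517 of the si-Control mean. The log2 fold change was -0.83 in si-BAP1 (SE 0.044, limma adjusted p = 6e-08) and -0.56 in si-MBD5 (limma adjusted p = 5.12e-06). A second PSMB9 probe set gave -0.82 and -0.57, both past the threshold. The third, whose groups overlapped at intensities such as 34.5 in si-BAP1 and 33.9 in si-Control, gave -0.035 and -0.095 and did not pass.

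PSMB8 (LMP7) moved in the same order. Its intensity was 195.1, 216.3 and 201.6 in si-BAP1, 227.4, 244.2 and 244.5 in si-MBD5, and 320.6, 317.0 and 281.4 in si-Control. The groups again did not overlap. The log2 fold change was -0.55 in si-BAP1 (SE 0.056, limma adjusted p = 1.11e-05) and -0.34 in si-MBD5 (limma adjusted p = 0.0011). The other PSMB8 probe set above the brightness filter gave -0.50 and -0.25, both past the threshold, and the remaining probe set was too dim to be tested.

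PSMB10 (MECL1), the third inducible catalytic subunit, was nearer the threshold. Its intensity was 285.2, 285.2 and 270.0 in si-BAP1, 249.0, 264.6 and 285.2 in si-MBD5, and 323.5, 300.2 and 306.3 in si-Control. Both knockdowns lay wholly below si-Control and overlapped each other. The log2 fold change of -0.21 in si-MBD5 (SE 0.051, limma adjusted p = 0.0129) passed, but not without si-Control replicate 1 (0.0592) or si-MBD5 replicate 1 (0.0615). The value of -0.14 in si-BAP1 did not pass (limma adjusted p = 0.0668) but did without si-MBD5 replicate 3 (0.0329) and on the mean of the probe sets (-0.17, 0.0115). Of the other 2 PSMB10 probe sets, 1 passed in si-BAP1 (-0.23) and both passed in si-MBD5 (-0.34 and -0.18).

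The constitutive subunits that these 3 replace did not pass. PSMB5 averaged 939 ± 8.7 in si-BAP1, 931 ± 49 in si-MBD5 and 945 ± 49 in si-Control (SD, n = 3 each), PSMB6 1949 ± 69, 2046 ± 48 and 2024 ± 46, and PSMB7 3405 ± 10.2, 3377 ± 79 and 3467 ± 93, in the same order of groups. Their log2 fold changes in both knockdowns lay between -0.054 and 0.015. The 95% interval of the difference between si-BAP1 and si-Control was -0.10 to 0.087 for PSMB5, -0.13 to 0.017 for PSMB6 and -0.085 to 0.033 for PSMB7.

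Both subunits of the PA28 activator fell in both knockdowns. PSME2 (PA28 beta) had 625.0, 657.4 and 642.2 in si-BAP1, 703.1, 698.7 and 657.4 in si-MBD5, and 916.9, 817.8 and 818.8 in si-Control. The knockdown arrays all lay below si-Control and touched each other at 657.4. Its log2 fold change was -0.40 in si-BAP1 (SE 0.047, limma adjusted p = 4.02e-05) and -0.30 in si-MBD5 (limma adjusted p = 0.000745). These values come from the single probe set PSME2 has, whose suffix marks probes shared between transcripts, which can be of different genes. PSME1 (PA28 alpha) had 426.8, 441.6 and 420.4 in si-BAP1, 450.9, 485.5 and 508.5 in si-MBD5, and 558.3, 550.1 and 529.5 in si-Control, with no overlap of groups. Its log2 fold change was -0.33 in si-BAP1 (SE 0.045, limma adjusted p = 0.000119), where all 3 PSME1 probe sets passed, and -0.18 in si-MBD5 (limma adjusted p = 0.0173), where 2 of 3 passed. The si-MBD5 call was lost without si-Control replicate 1 (0.0676), si-Control replicate 2 (0.0708) or si-MBD5 replicate 1 (0.0754).

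TAP1 and TAP2, the subunits of a single transporter, differed in what passed. TAP1 had 173.0, 189.9 and 182.6 in si-BAP1, 203.4, 206.4 and 206.4 in si-MBD5, and 260.6, 284.3 and 263.9 in si-Control, with no overlap. Its log2 fold change was -0.53 in si-BAP1 (SE 0.046, limma adjusted p = 2.98e-06) and -0.37 in si-MBD5 (limma adjusted p = 0.000169). Its other probe set gave -0.33 and -0.27, both past the threshold. TAP2 had 210.9, 215.1 and 209.8 in si-BAP1, 242.9, 247.2 and 252.5 in si-MBD5, and 233.0, 219.9 and 232.7 in si-Control. Here the si-BAP1 arrays lay below si-Control and the si-MBD5 arrays above it, and neither difference passed (-0.10, limma adjusted p = 0.0893, and 0.11, limma adjusted p = 0.0887, SE 0.040).

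The 4 TAP2 probe sets disagreed. The second brightest had 114.8, 121.1 and 133.2 in si-BAP1, 139.7, 146.3 and 140.8 in si-MBD5, and 157.6, 161.3 and 157.2 in si-Control. In a fit over all 29584 probe sets above the filter it fell in si-BAP1 (-0.33, limma adjusted p = 0.000446) and did not pass in si-MBD5 (-0.14, limma adjusted p = 0.0902). So the brightest TAP2 probe set placed si-MBD5 above si-Control and this one placed it below. The other 2 passed in no comparison. Over the mean of its probe sets TAP2 gave -0.11 in si-BAP1, past the threshold (limma adjusted p = 0.0421), and 0.029 in si-MBD5 (0.644). With array weights, the brightest probe set passed as higher in si-MBD5 (0.13, limma adjusted p = 0.019).

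TAPBP (tapasin) had 558.6, 559.1 and 540.5 in si-BAP1, 473.1, 507.3 and 539.9 in si-MBD5, and 627.6, 635.5 and 602.2 in si-Control. Both knockdowns lay below si-Control, and si-MBD5 lay below si-BAP1. The log2 fold change was -0.17 in si-BAP1 (SE 0.046, limma adjusted p = 0.0182) and -0.29 in si-MBD5 (limma adjusted p = 0.000882). The si-BAP1 call was lost without si-BAP1 replicate 3 (0.0761), si-Control replicate 1 (0.0599) or si-Control replicate 2 (0.0817). The 4 dimmer TAPBP probe sets passed in no comparison, and the mean over the probe sets gave -0.021 in si-BAP1 (limma adjusted p = 0.759) and -0.074 in si-MBD5 (limma adjusted p = 0.219).

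B2M, the light chain, passed in no comparison. It had 5377.8, 5635.8 and 5217.0 in si-BAP1, 5246.2, 5388.9 and 5222.3 in si-MBD5, and 5508.2, 5372.1 and 5686.2 in si-Control. All groups overlapped. The log2 fold change was -0.030 in si-BAP1, with a 95% interval of -0.096 to 0.036 (limma adjusted p = 0.561), and -0.063 in si-MBD5, with an interval of -0.13 to 0.0034 (limma adjusted p = 0.201). Of its 8 probe sets, 2 hold identical values, and 1 fell in both knockdowns, by log2 fold changes of -0.10 and -0.11.

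NLRC5, the transactivator, was lower in si-BAP1. It had 42.7, 36.4 and 42.4 in si-BAP1, 49.3, 54.0 and 47.3 in si-MBD5, and 57.4, 49.99 and 48.5 in si-Control. The si-BAP1 arrays lay below both other groups, which overlapped. The log2 fold change was -0.27 in si-BAP1 (SE 0.065, limma adjusted p = 0.00846) and -0.036 in si-MBD5 (limma adjusted p = 0.774). This probe set stood near the array medians of 36.9 to 38.2, and its suffix marks probes shared between transcripts, which can be of different genes. How much of its signal is background was not tested. The other NLRC5 probe set, near an intensity of 9.42 in si-Control, was too dim to be tested.

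**Figure D3:**
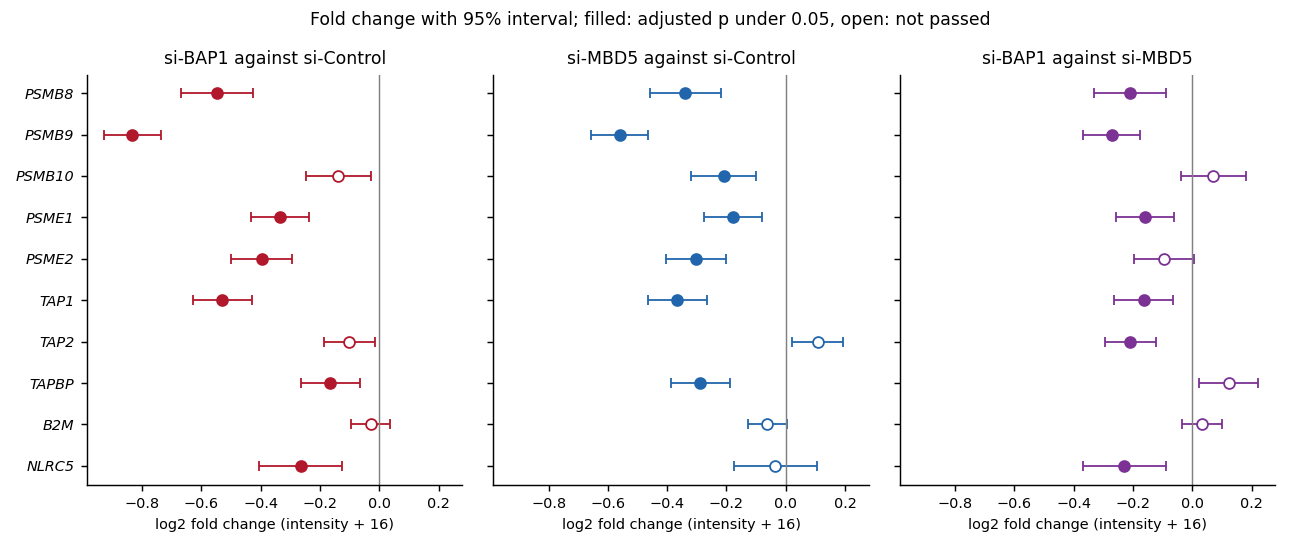
Log2 fold changes of the 10 genes (intensity + 16) with 95% intervals in 3 comparisons, filled where the limma adjusted p was under 0.05. PSMB9 lies farthest from 0 against si-Control in both knockdowns, at -0.83 and -0.56, and B2M spans 0 in all 3 comparisons.

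Read by probe set, 15 of the 32 tested fell in si-BAP1 and 14 in si-MBD5, and 0 rose, where 8.79% and 6.65% of all tested probe sets fell and 11.4% and 5.9% rose. In si-BAP1 against si-MBD5, 7 of the 32 were lower and 0 higher, where 3.16% of all were lower and 4.53% higher; the brightest PSME1 and TAP1 probe sets passed in the fit by genes and not in this fit (limma adjusted p = 0.0562 and 0.0529). The probe sets that did not pass were mainly those of B2M, TAP2 and the dimmer ones of TAPBP. Probe sets of a gene can share RNA fragments and are not separate measurements of it.

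**Figure D4:**
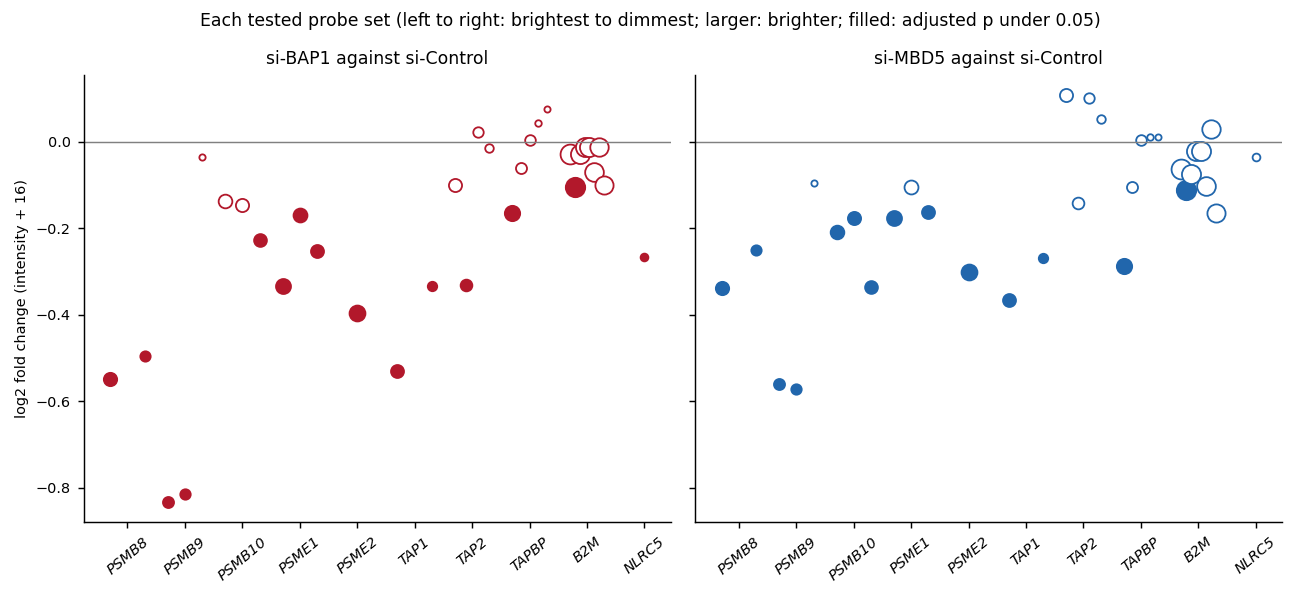
Log2 fold change (intensity + 16) of each of the 32 tested probe sets, ordered within a gene from brightest to dimmest, with larger points for brighter probe sets and filled points for limma adjusted p under 0.05, in si-BAP1 (left) and si-MBD5 (right) against si-Control. For PSMB9 the 2 brighter probe sets lie near -0.8 and the dimmest near 0 in si-BAP1.

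Set directly against each other, si-BAP1 was lower than si-MBD5 in 6 of the 10 genes and higher in 0, where 4.21% of all tested genes were lower and 5.76% higher. The si-BAP1 arrays lay wholly below the si-MBD5 arrays in 6 genes (10.2% of all genes) and wholly above in 1, TAPBP (14.8%). By limma adjusted p, 524 of all tested genes passed as lower and 716 as higher. That split turned with quantile normalization (711 lower and 603 higher). It also turned without si-BAP1 replicate 2 (474 lower and 372 higher) and without si-MBD5 replicate 1 (375 lower and 346 higher). The 6 were PSMB9 (-0.27, limma adjusted p = 0.00152), TAP2 (-0.21, 0.00487), PSMB8 (-0.21, 0.0299), NLRC5 (-0.23, 0.04), TAP1 (-0.16, 0.0405) and PSME1 (-0.16, 0.0434). PSMB9 and TAP2 passed in all 21 alternatives run. The other 4 were close to the threshold: PSMB8 passed in 16 of 21, TAP1 in 12 of 21, NLRC5 in 11 of 19 and PSME1 in 8 of 21. The count fell to 2 without si-BAP1 replicate 1, without si-BAP1 replicate 3 or without si-MBD5 replicate 2. TAPBP went the other way, with a log2 difference of 0.12 that did not pass (limma adjusted p = 0.12) but did without si-MBD5 replicate 3 (0.17, 0.0268). PSME2 (-0.095, interval -0.20 to 0.0068), PSMB10 (0.071, interval -0.039 to 0.18) and B2M (0.033, interval -0.033 to 0.099) did not pass.

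The rest of the proteasome was compared next, from lists of its parts, beside the 11.1% of all tested genes that fell and 12.4% that rose in si-BAP1, and the 8.99% and 7.29% in si-MBD5. Of 13 tested constitutive core subunits, 1 fell in si-BAP1 (PSMA2, -0.091) and 1 in si-MBD5 (PSMA3, -0.20), with list medians of -0.011 and -0.016. Of 15 tested subunits of the regulatory particle, which recognises ubiquitin chains, 0 fell and 1 rose in each knockdown (PSMD2, 0.12 and 0.14). Of 8 assembly factors and other activators, 2 fell in both knockdowns. These were PSME3 (PA28 gamma, the nuclear relative of PSME1 and PSME2), at -0.25 in si-BAP1 and -0.17 in si-MBD5, and POMP, the chaperone that helps the core assemble, at -0.10 and -0.13.

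Among the class I heavy chains and other processing genes, 4 of 13 tested fell and 2 rose in si-BAP1 (11.1% and 12.4% of all tested genes), and 3 fell and 0 rose in si-MBD5 (8.99% and 7.29%). HLA-C averaged 400.0 ± 8.4 in si-BAP1, 425 ± 39 in si-MBD5 and 533 ± 32 in si-Control (SD, n = 3 each), log2 fold changes of -0.40 and -0.32. HLA-B averaged 325 ± 13 in si-BAP1, 353 ± 7.4 in si-MBD5 and 424 ± 20 in si-Control, changes of -0.37 and -0.25. HLA-E, which presents leader peptides to NK cell receptors, fell by 0.35 and 0.27 on the log2 scale. In the fit by probe sets, a second tested HLA-C probe set gave -0.21 in si-BAP1, past the threshold. In si-MBD5 it gave -0.084, not past it (limma adjusted p = 0.487). A second HLA-B probe set gave -0.28 in si-BAP1, past the threshold, and -0.19 in si-MBD5, not past it (limma adjusted p = 0.0559). Each tested HLA-E probe set passed as lower in both knockdowns. Probe sets of these near-identical genes can take up each other's RNA, so their values are uncertain as to the gene. The chaperone calnexin (CANX), which holds new heavy chains, averaged 3204 ± 62 in si-BAP1, 3985 ± 103 in si-MBD5 and 3940 ± 136 in si-Control. It fell in si-BAP1 (-0.30) and not in si-MBD5 (0.017), and si-BAP1 was lower than si-MBD5 by a direct test (-0.31, limma adjusted p = 2.66e-05). The chaperone CALR (0.25) and the folding sensor UGGT1 (0.15), both of the same endoplasmic reticulum system, rose in si-BAP1.

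Of 21 tested regulators of class I genes, 9 fell and 1 rose in si-BAP1 (11.1% and 12.4% of all tested genes), and 7 fell and 0 rose in si-MBD5 (8.99% and 7.29%). The list medians were -0.11 and -0.13. IRF1, a factor that binds GAAA pairs of the kind shown above, averaged 57.1 ± 1.6 in si-BAP1, 58.4 ± 1.1 in si-MBD5 and 83.8 ± 3.4 in si-Control (SD, n = 3 each), log2 fold changes of -0.45 (limma adjusted p = 1.08e-05) and -0.42 (4.53e-05). A second IRF1 probe set gave -0.17 in si-BAP1, past the threshold, and -0.12 in si-MBD5, not past it (limma adjusted p = 0.109). Of the NF-kB subunits in the list, NFKB2 (-0.48 and -0.40), RELB (-0.41 and -0.24) and NFKB1 (-0.16 and -0.16) fell in both knockdowns. RELA fell in si-BAP1 (-0.19) and did not pass in si-MBD5 (-0.10, limma adjusted p = 0.163), and REL passed in neither (-0.11 and -0.18). The inhibitor NFKBIA fell in both (-0.32 and -0.37). In si-Control the NFKB2 arrays spread from 130.2 to 185.2. The interferon-gamma receptor chain IFNGR1 fell by 0.37 and 0.20 on the log2 scale. NFYA, a subunit of a factor that binds class I and class II promoters, rose in si-BAP1 (0.35), also against si-MBD5 (0.25, limma adjusted p = 0.0351).

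Of 13 tested interferon-induced genes, 4 fell in si-BAP1 (11.1% of all tested genes) and 3 in si-MBD5 (8.99%), and 0 rose. The list medians were -0.075 and -0.022. DTX3L, a ubiquitin ligase, had the largest change of them (-0.49 and -0.42), and the ubiquitin-like ISG15 gave -0.23 and -0.25. IFI35 (-0.19) and the adhesion molecule ICAM1 (-0.16) completed the 4 in si-BAP1, and the tryptophan tRNA ligase WARS1 (-0.16) the 3 in si-MBD5. IFI35 was also lower in si-BAP1 than in si-MBD5 (-0.21, limma adjusted p = 0.0076). The other 11 of the 24 listed genes were below the filter. Of 5 tested class II genes 0 passed by limma in either knockdown, and 0 had an unadjusted p under 0.05.

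**Figure D5:**
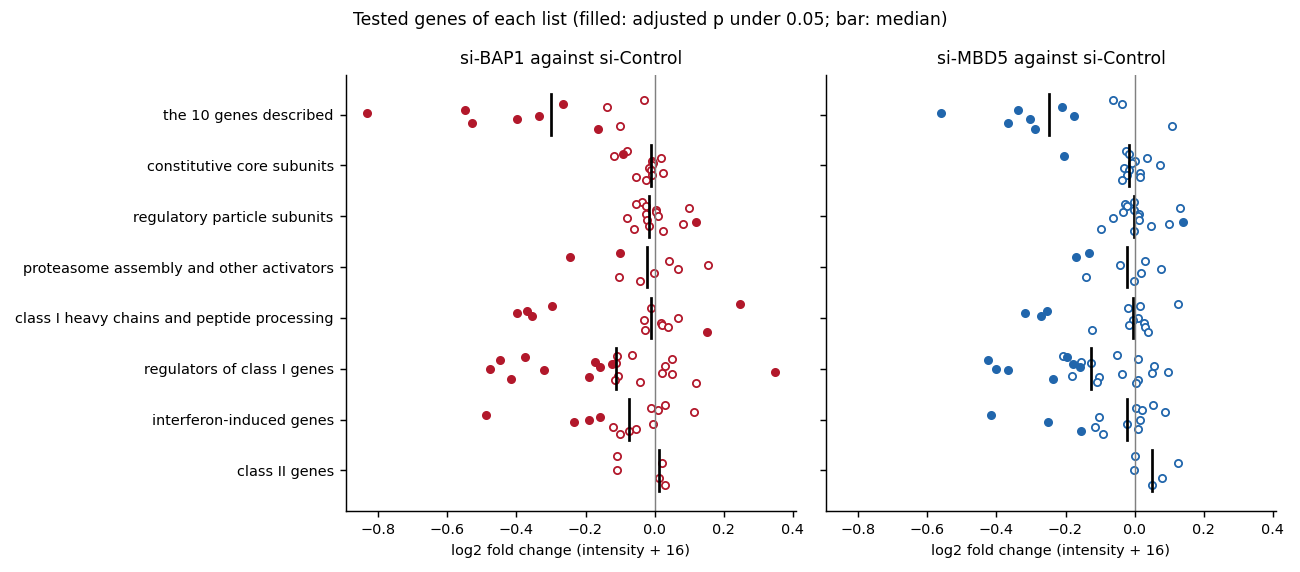
Log2 fold change (intensity + 16) of every tested gene of each list in si-BAP1 (left) and si-MBD5 (right) against si-Control, filled where the limma adjusted p was under 0.05, with a bar at the list median. The 10 genes have medians of -0.30 and -0.25, and the constitutive core subunits -0.011 and -0.016.

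The genomic neighbours of the members were read in the same way. PSMB8, PSMB9, TAP1 and TAP2 lie side by side in the class II region of chromosome 6, in the order TAP2, PSMB8, TAP1, PSMB9, and the brightest TAP2 probe set passed in neither knockdown while the next 3 genes fell in both. HLA-DMB, on the other side of PSMB9, gave 0.022 in si-BAP1 and 0.13 in si-MBD5 and did not pass. The nearest tested gene on each side of a member was taken, passing over untested genes, which gave 13 that are not members. Of these, 1 fell in si-BAP1 and 2 in si-MBD5, and 0 rose, where 11.1% and 8.99% of all tested genes fell. HERPUD1, taken beside NLRC5, fell in both (-0.25, limma adjusted p = 0.000156, and -0.15, 0.0135). SPG11, taken beside B2M, fell in si-MBD5 (-0.24, limma adjusted p = 0.02) and did not pass in si-BAP1 (-0.16, 0.084). EMC9, which lies between PSME1 and PSME2 on chromosome 14 and was picked out after its values were seen, gave 0.055 and 0.089 and did not pass.

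The genes most like PSMB9 over the 9 arrays, by the root mean square difference of log2 values set to the si-Control mean, were SQOR (0.038), IER3 (0.052), ITGA2 (0.063), ANPEP (0.083) and ETV5 (0.088). TAP1 came 43rd and PSMB8 45th in that order, since both fell less. Most like TAP1 were SEC14L1 (0.043), SCML1 (0.046), SEMA4B (0.049), DDR1 (0.050) and DLX2 (0.052), with PSMB8 7th. These are likenesses over arrays of 3 groups and carry no test.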

How the data were processed

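Per the labels' protocols, Trizol-extracted total RNA (6 ug) was converted to biotinylated cRNA. The deposited values are linear intensity, 1 per probe set and array, made with MAS5 per the submitters' processing notes, with version and scaling not given in the sources used here. Of its 49395 probe sets, 102 are controls and 44988 have 1 symbol. Symbols were updated through gene identifiers with a RefSeq table (44961 matched).

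From these, log2(intensity + 16) was computed without further scaling. Genes were read from their brightest probe set with a mean above the 40th percentile (12434 genes), and all 29584 such probe sets were fitted separately. limma 3.58.1 (R 4.3.3) fitted 3 group means to 9 arrays with an intensity trend, and p-values were adjusted by Benjamini-Hochberg (threshold 0.05). They measure the spread between replicates of 1 cell line. The number of arrays limits precision. In data simulated for si-BAP1 against si-Control (12434 genes), 57% of 100 changes of 0.25 log2 and 97% of 100 changes of 0.5 log2 were recovered. There, 8 unchanged genes were called. The simulation changed only these genes, whereas 1382 genes fell and 1536 rose in the data. Adjustment was therefore stricter in the simulation, and its recovered shares do not describe the calls in the data.

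The members, lists, tests and alternatives were chosen with earlier results of these data known. Named were all members, up to 4 called genes per list and comparison, pathway neighbours, and the 5 genes most like PSMB9 and TAP1. List genes with no probe set under a single symbol were not analysed here. Correlations between same-numbered replicates of different groups, after removing group means, ran from -0.40 to 0.43, so the numbers were not taken to pair samples. Alternatives were median centring, quantile normalization, constants of 1 or 64, no filter, a 60th percentile filter, means over probe sets, no _x_at and _s_at probe sets, a replicate block, array weights, no trend, only the 2 groups compared, and leaving out each array. Promoters are RefSeq's, searched on both strands with overlaps kept. Python 3.11.15 with matplotlib 3.10.9 drew the figures.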

Additional observations from a re-analysis of the deposited data

How the results depend on the processing

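Over the 30 values of members in 3 comparisons, 621 alternative values were computed: 567 kept their direction and side of the threshold, 45 lost the call, 8 gained it and 1 changed sign. The sign change was NLRC5 in si-MBD5 against si-Control without si-Control replicate 1, a difference that had not passed and that ran from -0.077 to 0.021 with 1 array left out. PSMB8, PSMB9, TAP1 and PSME2 fell in both knockdowns under each alternative that gave them a value. The count of member genes lower in si-BAP1 than in si-MBD5 (6) was 3 with median centring, 3 without the filter, 3 with only the 2 groups compared, and 2 to 6 with 1 array left out. The count of member probe sets (7) was 4, 3, 4 and 3 to 6 in the same settings. With 1 array left out, 6 to 8 member genes were called in si-BAP1 and 5 to 7 in si-MBD5, and 13 to 17 and 10 to 15 probe sets. The ACTB ratio difference between si-MBD5 and si-Control turned to -0.026 with quantile normalization. The replicate numbers were not taken to pair the samples. With the replicate block, 7, 7 and 5 member genes were called in si-BAP1 and si-MBD5 against si-Control and in si-BAP1 against si-MBD5, and PSME1 lost its call in the last (limma adjusted p = 0.0707). PSME2 without _s_at probe sets, and NLRC5 there and at the 60th percentile, gave no value. The causes were not tested. Dim probe sets limit NLRC5 and MBD5.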
